A study of Mus musculus with 6 samples.

Results

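The genes described here make, salvage or break down the deoxynucleotides from which DNA is built. They are Rrm1, Rrm2, Rrm2b, Tk1, Tyms, Dck, Dut, Dtymk and Samhd1, chosen by name, and all 9 were found among the 34245 genes of the deposited RNA-seq table. The table holds 3 peripheral T-cell lymphomas (PTCL) that arose in lymph nodes of FVB mice (FVB/N in the study's methods) carrying 1 knocked-out allele of the DNA methyltransferase gene Dnmt3b in the germ line (Dnmt3b+/-). Each tumor came from a terminally sick animal and is 1 library of total RNA from bulk tissue, with the tumor numbers of the deposited table; the age of the animals is not given in the sources used here. Libraries of control T cells and the bisulfite libraries of Dnmt3b+/- and Dnmt3a-/- PTCL were not analysed here, so the comparison is between tumors of a single genotype and no test between groups could be made.

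Values are FPKM, fragments on a gene divided by the merged length of all its annotated exons and by library depth. Ratios between tumors do not depend on that length, but levels of different genes do: the merged exons are longer than the principal coding transcript of the annotation by a factor of 1.23 for Dck up to 3.61 for Tk1. Comparisons between genes are therefore also given with the length of that transcript, an alternative chosen after seeing the data. Genes on which no read fell were given 0.9 read by the quantification, and from this shared value the depth comes to 30726570 reads for tumor 1, 18969988 for tumor 2 and 20770928 for tumor 3. The reads behind 8 of the 9 genes were recovered as whole numbers and ran from 411 to 20636 per tumor; for Rrm2b the exon length of the annotation gave no whole numbers, and no reads are given. All intervals below are 95% intervals on the recovered reads and cover counting error only, not the variation between tumors.

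Ribonucleotide reductase turns ribonucleotides into deoxyribonucleotides and is the step that limits their supply in dividing cells. Thymidine nucleotides are made from deoxyuridine monophosphate by thymidylate synthase or recovered from thymidine by a salvage kinase, and lymphoid cells lean on salvage of deoxycytidine as well. Opposite to these enzymes, a triphosphohydrolase degrades deoxynucleotides and keeps their pool low outside of DNA replication.

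Rrm1, the large subunit of ribonucleotide reductase that holds the catalytic and regulatory sites, lies on the forward strand at chr7:102441695-102469771 of mm10. Its level was 10.7 FPKM in tumor 1, 6.47 FPKM in tumor 2 and 5.74 FPKM in tumor 3, averaging 7.63 ± 2.65 (SD, n = 3). Tumor 1 was high and the other tumors lay close together, with tumor 1 over tumor 3 at 1.86-fold (interval 1.74 to 1.98). Rrm2, the small subunit that dividing cells make in S phase (chr12:24708241-24714146), had 41.4 FPKM in tumor 1, 17.5 FPKM in tumor 2 and 17.4 FPKM in tumor 3, averaging 25.5 ± 13.8 (SD, n = 3). Here too tumor 1 stood alone, 2.37-fold above tumor 3 (interval 2.21 to 2.55), and tumors 2 and 3 could not be told apart. Rrm2b, the small subunit used outside S phase and under the control of p53 (chr15:37923952-37961318), had 4.03 FPKM in tumor 1, 2.74 FPKM in tumor 2 and 3.84 FPKM in tumor 3, averaging 3.54 ± 0.697 (SD, n = 3). Unlike the other subunits it was low in tumor 2 and nearly level between tumors 1 and 3. The ratio of Rrm2 to Rrm1, which does not depend on how the libraries are scaled, was 3.88 for tumor 1, 2.71 for tumor 2 and 3.04 for tumor 3, averaging 3.21 ± 0.605 (SD, n = 3). With the length of the principal transcript, 3997 bases for Rrm1 in place of 11012 and 2193 for Rrm2 in place of 2771, this ratio was 1.78 for tumor 1, 1.24 for tumor 2 and 1.39 for tumor 3. Rrm2 was above Rrm1 in every tumor with both lengths, but by a margin that depends on the length used. The ratio of Rrm2 to Rrm2b, for which no other length could be tried, varied more, from 10.3 in tumor 1 through 6.39 in tumor 2 to 4.54 in tumor 3, averaging 7.06 ± 2.92 (SD, n = 3).

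**Figure D1:**
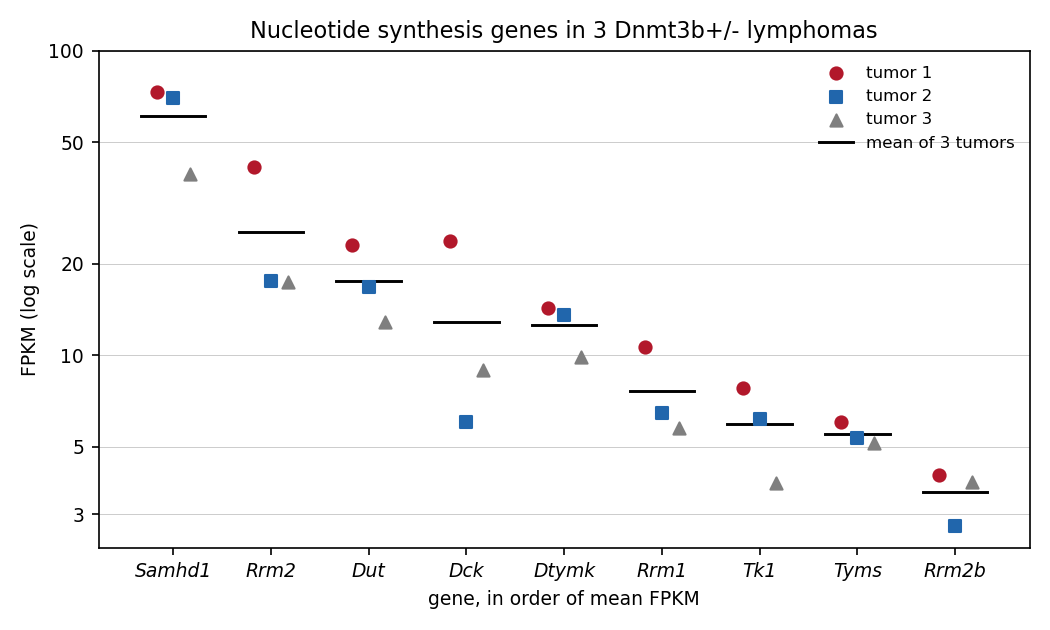
FPKM of the 9 genes (log axis) in each of the 3 tumors (symbols) with the mean (bar), in order of mean FPKM on merged exons. Samhd1 is highest with a mean of 60.9 and Rrm2b lowest with 3.54, and the symbol of tumor 1 is the uppermost for all 9 genes as deposited.

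The bases just before the RefSeq start of a gene are printed for 4 genes that differ in how they vary: Rrm1 and Rrm2, which were both high in tumor 1, Dck, which varied most among the 9 genes, and Tyms, which varied least. The sequences are from RefSeq on GRCm38.p6, the reference strain and not FVB, and are the 150 bases that end at the base before that start, each 5′ to 3′ on the strand of its gene. RefSeq promoters were matched for 8 of the 9 genes, all but Rrm2b. Rrm1 is shown from chr7:102441545-102441694 (forward strand), Rrm2 from chr12:24708104-24708253 (forward), Tyms from chr5:30073626-30073775 (reverse) and Dck from chr5:88764863-88765012 (forward), with capitals marking every match to the motifs described next.
Rrm1: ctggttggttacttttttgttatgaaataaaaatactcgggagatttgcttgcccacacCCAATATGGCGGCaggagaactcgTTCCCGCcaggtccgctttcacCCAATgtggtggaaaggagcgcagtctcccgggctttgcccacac
Rrm2: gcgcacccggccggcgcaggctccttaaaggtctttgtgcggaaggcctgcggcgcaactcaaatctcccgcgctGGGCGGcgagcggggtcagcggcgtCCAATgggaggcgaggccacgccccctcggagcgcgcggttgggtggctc
Tyms: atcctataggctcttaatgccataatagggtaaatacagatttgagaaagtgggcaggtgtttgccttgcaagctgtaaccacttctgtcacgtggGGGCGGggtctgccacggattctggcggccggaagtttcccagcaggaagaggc
Dck: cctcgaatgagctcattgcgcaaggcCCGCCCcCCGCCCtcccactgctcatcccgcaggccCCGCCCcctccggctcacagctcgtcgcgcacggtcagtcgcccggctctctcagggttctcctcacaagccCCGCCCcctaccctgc

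Motifs were searched on both strands of these 150 bases in 32851 RefSeq promoters, and no matches overlapped each other in the promoters of the 8 genes. The core of the E2F motif, written as TTCCCGC with the variants TTGGCGC and also TTCGCGC besides the form TTGCCGC, was in 5.47% of all promoters and in 2 of the 8, Rrm1 and Dtymk. The CCAAT box, named after its letters, was in 24.5% of all promoters and in 3 of the 8, Rrm1 with 2 copies, Rrm2 and Dtymk. The GC box, GGGCGG, was in 28.6% of all promoters and in 5 of the 8, with 4 copies in the window of Dck. The RefSeq start of Dck lies 17 bases inside the deposited gene, so the copy nearest to that start is within the gene, as are the copies for Dut and Tk1. The core of the YY1 motif, ATGGCGGC, was in 0.630% of all promoters and, of the 8, only in that of Rrm1, where it directly follows a CCAAT. The cell cycle homology region, TTTGAA, was in 9.07% of all promoters and in 0 of the 8. These matches describe letters, not occupied sites.

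Tyms makes thymidine monophosphate from deoxyuridine monophosphate and lies on the reverse strand at chr5:30058202-30073617. It had 6.02 FPKM in tumor 1, 5.34 FPKM in tumor 2 and 5.13 FPKM in tumor 3, averaging 5.50 ± 0.466 (SD, n = 3). These levels were nearly flat, with tumor 1 over tumor 3 at 1.17-fold (interval 1.06 to 1.29). Dut, which removes deoxyuridine triphosphate and so provides the substrate of Tyms (chr2:125247190-125258608), had 23.0 FPKM in tumor 1, 16.7 FPKM in tumor 2 and 12.8 FPKM in tumor 3, averaging 17.5 ± 5.10 (SD, n = 3). Each tumor differed from the next beyond counting error, and tumor 1 over tumor 3 was 1.79-fold (interval 1.63 to 1.96). Dtymk, the kinase that adds the next phosphate to thymidine monophosphate (chr1:93792576-93801934), had 14.3 FPKM in tumor 1, 13.6 FPKM in tumor 2 and 9.84 FPKM in tumor 3, averaging 12.6 ± 2.40 (SD, n = 3). Tumors 1 and 2 were level and tumor 3 was lower, at 1.46-fold below tumor 1 (interval 1.31 to 1.62).

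Tk1, the cytosolic kinase that salvages thymidine in S phase, lies on the reverse strand at chr11:117815526-117826092. It had 7.78 FPKM in tumor 1, 6.17 FPKM in tumor 2 and 3.81 FPKM in tumor 3, averaging 5.92 ± 2.00 (SD, n = 3). Tumor 3 was the low one, 2.04-fold below tumor 1 (interval 1.83 to 2.29). Afmid, on the opposite strand, shares 83 of the 5198 exon bases of Tk1, and whether the counting used strand is not given in the sources used here, so a part of the Tk1 value may be reads of Afmid. Afmid itself was highest in tumor 2, with 4.04 FPKM in tumor 1, 8.01 FPKM in tumor 2 and 5.999 FPKM in tumor 3. Dck, the kinase that salvages deoxycytidine and purine deoxynucleosides and activates drugs such as cytarabine, lies on the forward strand at chr5:88764996-88783281. It had 23.7 FPKM in tumor 1, 6.04 FPKM in tumor 2 and 8.94 FPKM in tumor 3, averaging 12.9 ± 9.47 (SD, n = 3). Dck was thus high in tumor 1 and lowest in tumor 2, a 3.92-fold span (interval 3.54 to 4.35), the widest of the 9 genes, which was 1.48-fold without tumor 1. The mean of Dck without tumor 1 was 7.49 FPKM. The ratio of Dck to Tk1 was 3.04 for tumor 1, 0.979 for tumor 2 and 2.35 for tumor 3. The ratio was thus lowest in tumor 2. With the length of the principal transcript it was 1.04 for tumor 1, 0.333 for tumor 2 and 0.799 for tumor 3. Dck was thus above Tk1 in tumor 1 with merged exons, and below it in tumor 2 with the principal transcript. With the principal transcript the order in tumor 1 is unresolved. Dck had 29.1 FPKM and Tk1 28.1 FPKM in that case, and their counting intervals overlap. With merged exons the order in tumor 2 is unresolved. The intervals overlap there, at 5.48 to 6.63 FPKM for Dck and 5.69 to 6.68 FPKM for Tk1. The order in tumor 3 depends on the length used.

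Samhd1, the triphosphohydrolase that degrades deoxynucleotides and is abundant in myeloid cells and resting T cells, lies on the reverse strand at chr2:157097533-157135265. It had 73.4 FPKM in tumor 1, 69.8 FPKM in tumor 2 and 39.4 FPKM in tumor 3, averaging 60.9 ± 18.7 (SD, n = 3). Tumors 1 and 2 were near each other and tumor 3 was lower, 1.86-fold below tumor 1 (interval 1.81 to 1.91). Of 6 macrophage markers 5 were highest in tumor 1, against 50.6% of the 11190 genes that averaged at least 1 FPKM, called all genes below, and 1 in tumor 2, and together they came to 188 FPKM for tumor 1, 102 for tumor 2 and 15.4 for tumor 3. The most abundant, C1qa, a complement component made by macrophages, had 74.5 FPKM, 24.1 FPKM and 1.44 FPKM in tumors 1, 2 and 3. The markers were thus lowest in the tumor with the lowest Samhd1, and their part in the Samhd1 values was not tested. In bulk tissue, fewer cells of a type and less RNA per cell cannot be told apart.

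By mean FPKM on merged exons the order was Samhd1, Rrm2, Dut, Dck, Dtymk, Rrm1, Tk1, Tyms and Rrm2b. Of the 8 pairs of neighbours in this order, only Tyms and Rrm2b had ranges over the 3 tumors that did not overlap. Overlap of ranges does not decide the order, since both genes of a pair were measured in the same tumors. Within each tumor the higher gene of a pair exceeded the lower one in 3 of 3 tumors for Samhd1 over Rrm2, Rrm2 over Dut, Dtymk over Rrm1, Rrm1 over Tk1 and Tyms over Rrm2b. Dut over Dck and Tk1 over Tyms held in 2 of 3 tumors, and Dck over Dtymk in 1 of 3. With the length of the principal transcript the order of the 8 genes with recovered reads was Samhd1, Dtymk, Rrm2, Dut, Tk1, Rrm1, Dck and Tyms. Samhd1 came first with both lengths. Rrm1 and Tyms also kept their places among the 8 genes, and the others changed places. Without tumor 1 the mean of Dck on merged exons also fell below that of Dtymk, at 7.49 against 11.7 FPKM.

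As deposited, all 9 genes were highest in tumor 1, against 50.6% of all genes. Lowest in tumor 3 were 7 of the 9, against 37.4% of all genes, and the other 2, Rrm2b and Dck, were lowest in tumor 2. The highest tumor was at least 2-fold above the lowest for 3 of the 9 genes, Rrm2, Tk1 and Dck, against 34.4% of all genes, so the spread of the 9 genes is near the background. These 3 were all highest in tumor 1, a combination that 18.1% of all genes show. Without tumor 1, 0 of the 9 genes reached 2-fold, against 16.4% of all genes. Without tumor 2 the count was 3 against 17.7%, and without tumor 3 it was 2 against 25.3%. With FPKM rescaled to the same sum in each tumor, 6 of the 9 genes reached 2-fold, against 39.4% of all genes. At a threshold of 1.5-fold the count was 6 against 62.8%, and at 3-fold it was 1 against 16.5%.

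**Figure D2:**
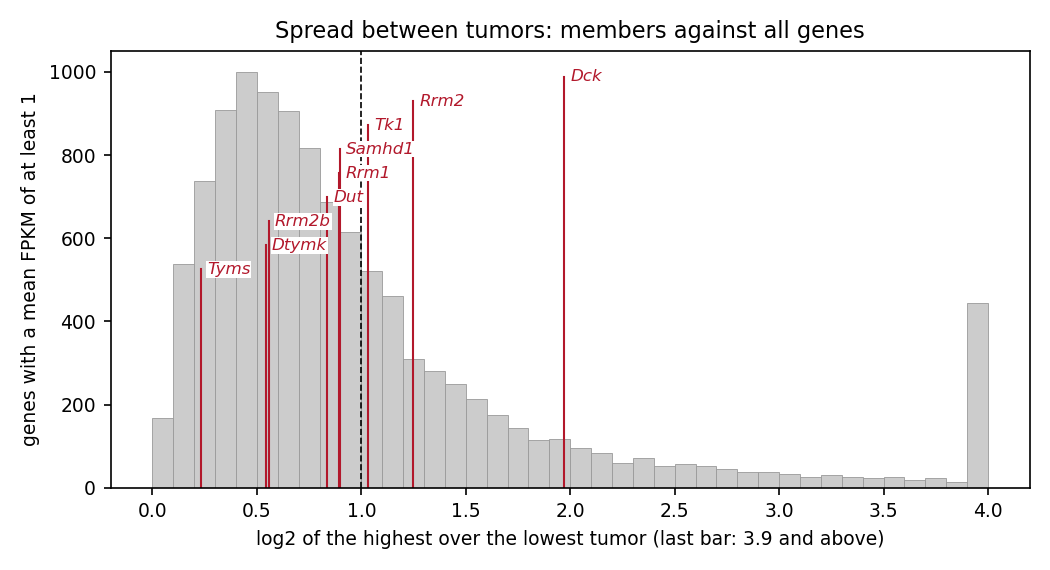
Number of genes averaging at least 1 FPKM (gray bars) by the log2 of their highest over their lowest tumor, with the 9 genes as red lines of arbitrary height and a dashed line at 2-fold. Rrm2, Tk1 and Dck lie to the right of the dashed line, and 34.4% of all genes do.

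The count of genes highest in tumor 1 depends on the scale of the libraries. The median gene was higher in tumor 1 than in tumor 3 by 0.24 on the log2 scale, higher in tumor 1 than in tumor 2 by 0.18, and higher in tumor 2 than in tumor 3 by 0.06. Median-of-ratios factors, which set the typical gene level between libraries, were 1.104 for tumor 1, 0.979 for tumor 2 and 0.941 for tumor 3. After division by them 5 of the 9 genes, Rrm1, Rrm2, Tk1, Dck and Dut, were highest in tumor 1, against 36.9% of all genes. Lowest in tumor 3 were then 5 of the 9, against 27% of all genes, with Rrm2 now lowest in tumor 2 beside Rrm2b and Dck, and Tyms in tumor 1. Rescaling each tumor to the same sum of FPKM instead left all 9 highest in tumor 1, against 60.5% of all genes. Of the others after median-of-ratios scaling, Dtymk and Samhd1 were highest in tumor 2, at 13.9 and 71.3 scaled FPKM against 13.0 and 66.5 in tumor 1. Rrm2b was highest in tumor 3, at 4.09 against 3.65 in tumor 1. Tyms was level, at 5.45, 5.46 and 5.45 scaled FPKM in tumors 1, 2 and 3. Rrm2 and Dck, but not Tk1 with 1.74-fold, spanned at least 2-fold after scaling, 2 of the 9 genes against 32.5% of all genes.

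**Figure D3:**
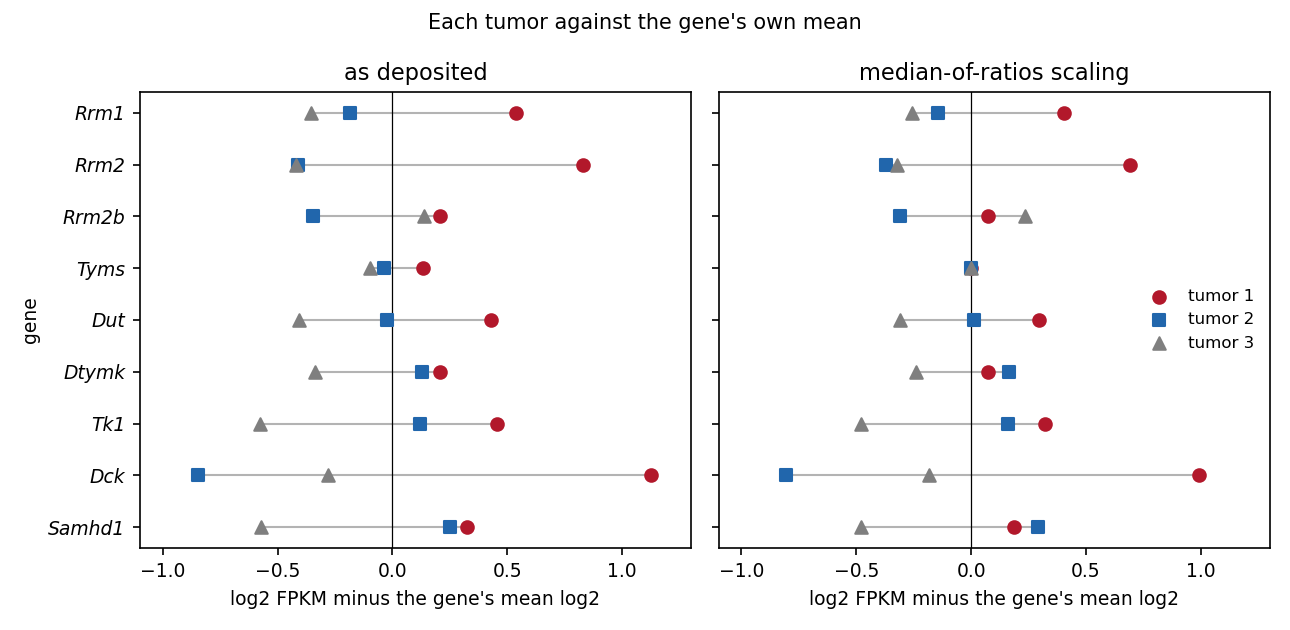
Log2 FPKM of each tumor minus the mean log2 of the gene, as deposited (left) and after median-of-ratios scaling (right), with a gray line from the lowest to the highest tumor. Tumor 1 is rightmost for 9 of the 9 genes on the left and for 5 on the right, and the symbols of Tyms fall on each other after scaling.

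Other genes of nucleotide metabolism were taken from 8 lists. Of their 65 genes besides the 9, 60 averaged at least 1 FPKM, of which 29 peaked in tumor 1 (48.3%, against 50.6% of all genes), 21 in tumor 2 and 10 in tumor 3. After scaling these counts were 19, against 36.9% of all genes in tumor 1, 23 and 18. Of all genes, 33.7% were highest in tumor 2 and 15.7% in tumor 3 as deposited, and 36.9% and 26.3% after scaling. At least 2-fold between tumors were 13 of the 60 (21.7%, against 34.4% of all genes), 8 of them with their peak in tumor 1 (18.1% of all genes), 3 in tumor 2 and 2 in tumor 3. Medians of log2 ratios over a list are given below relative to the median of all genes, and so do not move with the scale of the libraries; for the 9 genes they were 0.65 for tumor 1 over tumor 3 and 0.11 for tumor 2 over tumor 3.

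Of these lists 4 hold some of the 9 genes, which were left out of their counts and medians in a choice made after seeing the data. Among ribonucleotide reductase regulators the relative median was 0.34 for tumor 1 over tumor 3, or 0.61 with Rrm1, Rrm2 and Rrm2b included, and 3 of 4 genes were highest in tumor 1 on both scales, against 50.6% of all genes as deposited and 36.9% after scaling. Txn1, the thioredoxin that can supply its electrons, had 98.1 FPKM, 76.2 FPKM and 54.4 FPKM in tumors 1, 2 and 3. Thymidylate synthesis and the folate cycle had a relative median of 0.07 for tumor 1 over tumor 3, or 0.28 with Tyms, Dut and Dtymk included, with 5 of 6 genes highest in tumor 1 against 50.6% of all genes, or 3 against 36.9% after scaling. Mthfd2, a mitochondrial folate enzyme, varied most in that list with 13.3 FPKM, 6.14 FPKM and 6.83 FPKM, and Shmt2, which feeds the mitochondrial folate pool from serine, was level with 37.0 FPKM, 36.7 FPKM and 34.8 FPKM. Of the 4 deoxynucleoside salvage kinases the 2 mitochondrial ones were highest in tumor 2 on both scales, unlike Dck and Tk1. The shares of all genes highest in tumor 2 were 33.7% as deposited and 36.9% after scaling. Tk2 had 6.97 FPKM, 11.2 FPKM and 8.93 FPKM in tumors 1, 2 and 3. Dguok had 4.69 FPKM, 7.08 FPKM and 6.48 FPKM. The mRNA of both mitochondrial kinases was thus lowest in tumor 1, where Dck and Tk1 were highest. The share of all genes lowest in tumor 1 is not given here, so this describes these genes only.

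Enzymes of nucleotide breakdown and clean-up were highest in tumor 2 for 10 of 13 genes besides Samhd1, against 33.7% of all genes, or 10 against 36.9% after scaling, with a relative median of 0.27 for tumor 2 over tumor 3 and -0.17 for tumor 1 over tumor 3. Ada, which deaminates adenosine and deoxyadenosine and whose loss is toxic to lymphocytes, had the largest span among the genes of this list averaging at least 1 FPKM, with 7.67 FPKM in tumor 1, 27.1 FPKM in tumor 2 and 16.1 FPKM in tumor 3. Ada was thus lowest in the tumor with the highest Dck, which phosphorylates deoxyadenosine. Pnp, which splits purine nucleosides, was level with 5.84 FPKM, 6.13 FPKM and 5.99 FPKM. Kinases of nucleoside mono- and diphosphates had relative medians of -0.35 for tumor 1 over tumor 3 and -0.48 for tumor 2 over tumor 3, and 4 of 8 genes were highest in tumor 3 on both scales, against 15.7% of all genes as deposited and 26.3% after scaling. Cmpk2, a mitochondrial kinase induced by interferon, spanned the widest range with 1.57 FPKM, 21.8 FPKM and 6.34 FPKM in tumors 1, 2 and 3. Nme2, an abundant nucleoside diphosphate kinase, had 205 FPKM, 121 FPKM and 227 FPKM.

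The list named de novo pyrimidine synthesis was close to all genes, with a relative median of -0.04 for tumor 1 over tumor 3. Besides de novo enzymes it holds the uridine and cytidine kinases Uck1, Uck2 and Uckl1, which belong to salvage. The median is therefore not that of de novo synthesis alone. Cad, which carries out the first de novo steps, was level with 12.4 FPKM, 12.4 FPKM and 12.0 FPKM in tumors 1, 2 and 3. The kinase Uck2 varied most in the list, with 17.3 FPKM, 8.35 FPKM and 7.89 FPKM. Purine synthesis and salvage was low in tumor 2, with a relative median of -0.62 for tumor 2 over tumor 3 and -0.08 for tumor 1 over tumor 3. Of its 15 genes 9 were highest in tumor 1, against 50.6% of all genes, or 4 against 36.9% after scaling, and after scaling 8 were highest in tumor 3 against 26.3% of all genes. Paics, a bifunctional enzyme of the de novo pathway, had 45.5 FPKM, 18.9 FPKM and 27.7 FPKM. Prps2, which makes the ribose donor, had 12.5 FPKM, 23.7 FPKM and 44.5 FPKM, and Hprt, which salvages hypoxanthine and guanine, had 72.7 FPKM, 71.6 FPKM and 128 FPKM. Prps2 and Hprt were thus high in tumor 3, where most of the 9 genes were lowest. Of 4 nucleoside transporters, Slc29a1 was level with 13.5 FPKM, 13.6 FPKM and 13.2 FPKM, and Slc28a2, a concentrative transporter, had 12.5 FPKM, 4.64 FPKM and 7.49 FPKM; the relative median of the list was -0.11 for tumor 1 over tumor 3.

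**Figure D4:**
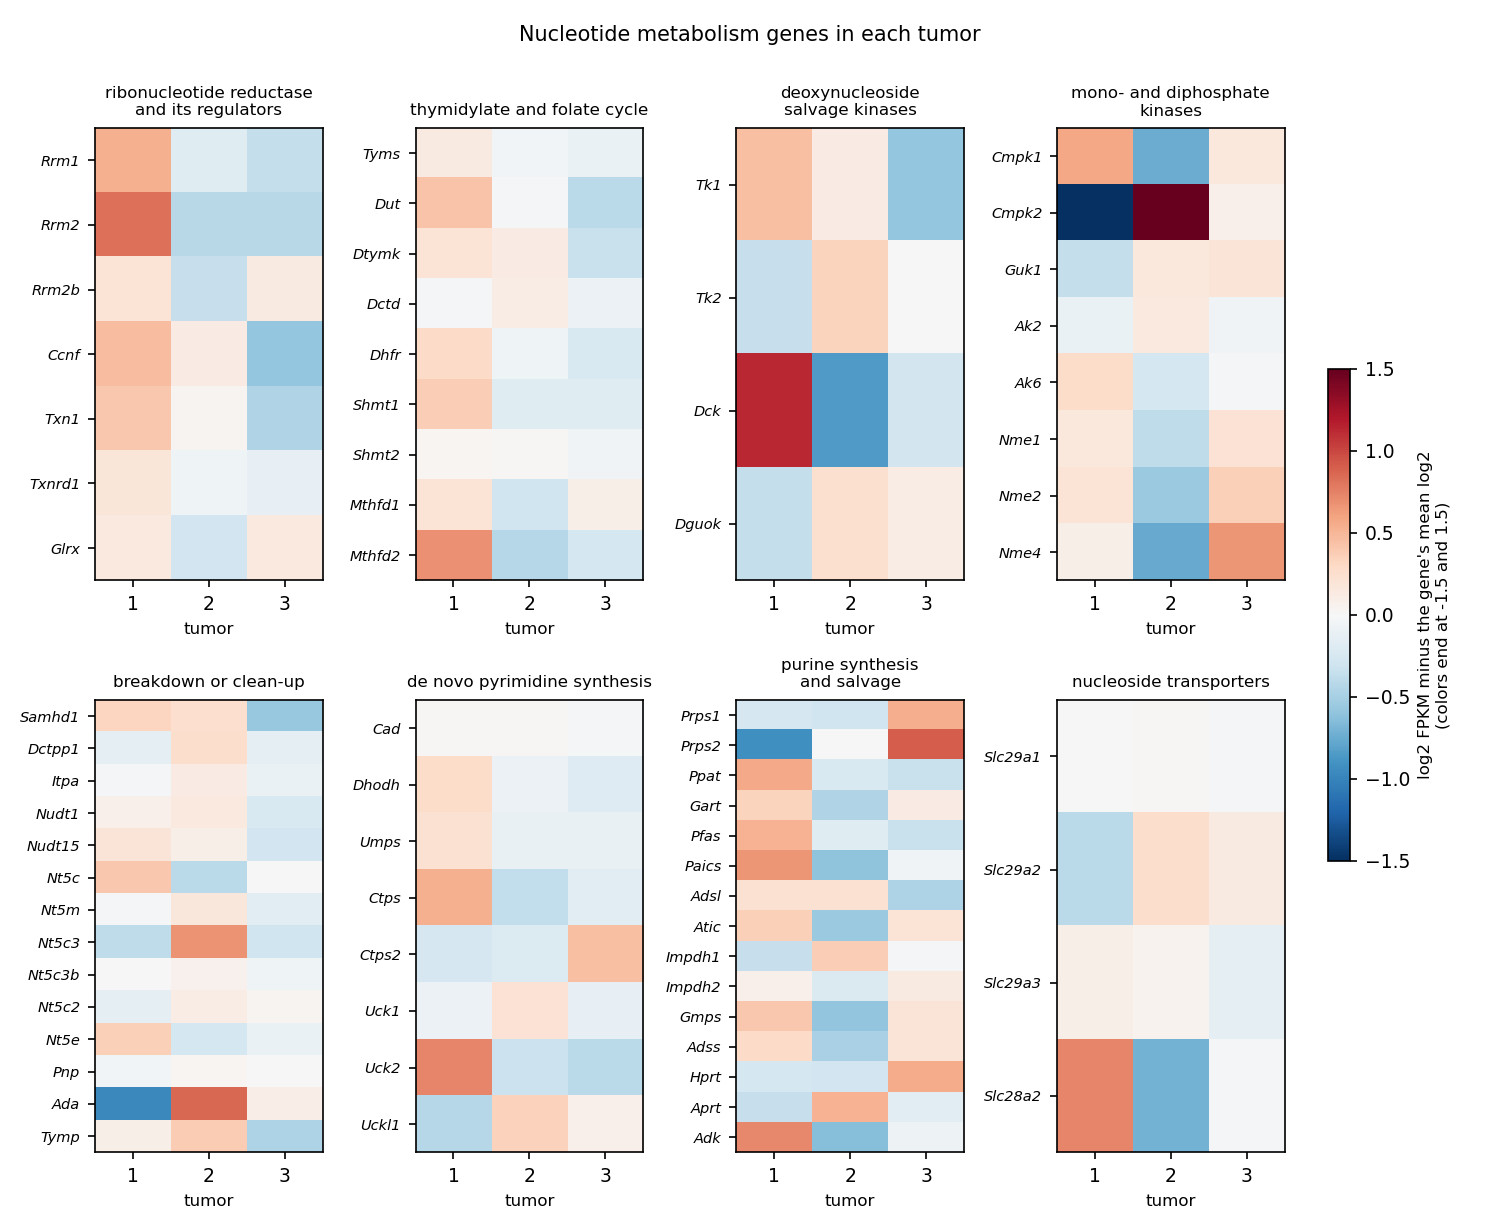
Log2 FPKM of each tumor minus the mean log2 of the gene, as deposited, for the genes of 8 nucleotide lists that averaged at least 1 FPKM (red above, blue below the mean, colors ending at -1.5 and 1.5). Ribonucleotide reductase genes are mostly red in tumor 1, Tk2 and Dguok are blue there, and Prps2 and Hprt are red in tumor 3.

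Several of the 9 genes are made at the time of DNA replication, so genes of the cell cycle were set beside them. Genes of the G1/S transition and replication had relative medians of 0.27 for tumor 1 over tumor 3 and 0.22 for tumor 2 over tumor 3, with 17 of 25 highest in tumor 1 and 8 in tumor 2, or 14 and 10 after scaling, against 50.6% and 33.7% of all genes as deposited and 36.9% in each after scaling. Pcna, the sliding clamp of the DNA polymerases, had 88.0 FPKM in tumor 1, 55.9 FPKM in tumor 2 and 63.6 FPKM in tumor 3. Ccne2, a cyclin of the G1/S transition, varied most with 6.03 FPKM, 1.45 FPKM and 2.84 FPKM. E2f1 was level at 5.39 FPKM, 5.47 FPKM and 5.19 FPKM. Genes of G2 and mitosis stood farther apart, with relative medians of 1.26 for tumor 1 over tumor 3 and 0.65 for tumor 2 over tumor 3. Of these, 18 of 18 were highest in tumor 1, or 16 after scaling, and 17 spanned at least 2-fold, against 50.6%, 36.9% and 34.4% of all genes. Top2a, the topoisomerase of dividing cells, had 42.8 FPKM, 17.3 FPKM and 11.8 FPKM in tumors 1, 2 and 3. Birc5, which acts at the centromere in mitosis, had 21.5 FPKM, 5.67 FPKM and 4.005 FPKM. The 9 genes thus lay between the G1/S and the G2 and mitosis list in tumor 1 over tumor 3, and below both in tumor 2 over tumor 3; the part of cell division in their values was not tested. E2F and RB factors had relative medians of 0.52 and 0.02 for the same ratios, with 12 of 14 genes highest in tumor 1 against 50.6% of all genes, or 8 against 36.9% after scaling. Tfdp1, the usual partner of E2F proteins, had 30.8 FPKM, 22.8 FPKM and 16.0 FPKM.

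Rrm2b is a target of p53, and 10 other targets were listed, 9 of them averaging at least 1 FPKM. Of these 9, 8 were highest in tumor 3 on both scales, against 15.7% of all genes as deposited and 26.3% after scaling, with relative medians of -1.15 for tumor 1 over tumor 3 and -0.98 for tumor 2 over tumor 3. Bax, a promoter of apoptosis, had 29.9 FPKM, 29.7 FPKM and 56.2 FPKM in tumors 1, 2 and 3. Mdm2, which marks p53 for degradation, was the exception with 12.0 FPKM, 7.82 FPKM and 7.90 FPKM. Rrm2b resembled this list after scaling in being highest in tumor 3, but only at 4.09 scaled FPKM against 3.65 in tumor 1. As deposited it was highest in tumor 1, at 4.03 FPKM against 3.84 FPKM in tumor 3, unlike this list. Its scaled span of 1.46-fold was small and lay between tumors 3 and 2, and no interval could be given for it. Interferon-stimulated genes, set beside Samhd1 and Cmpk2, were highest in tumor 2 for 11 of 11 genes on both scales, against 33.7% of all genes as deposited and 36.9% after scaling, with relative medians of -1.54 for tumor 1 over tumor 3 and 1.35 for tumor 2 over tumor 3. Isg15, a ubiquitin-like protein induced by interferon, had 26.0 FPKM, 270.3 FPKM and 81.7 FPKM. Cmpk2 shared this order of the tumors and Samhd1 did not.

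**Figure D5:**
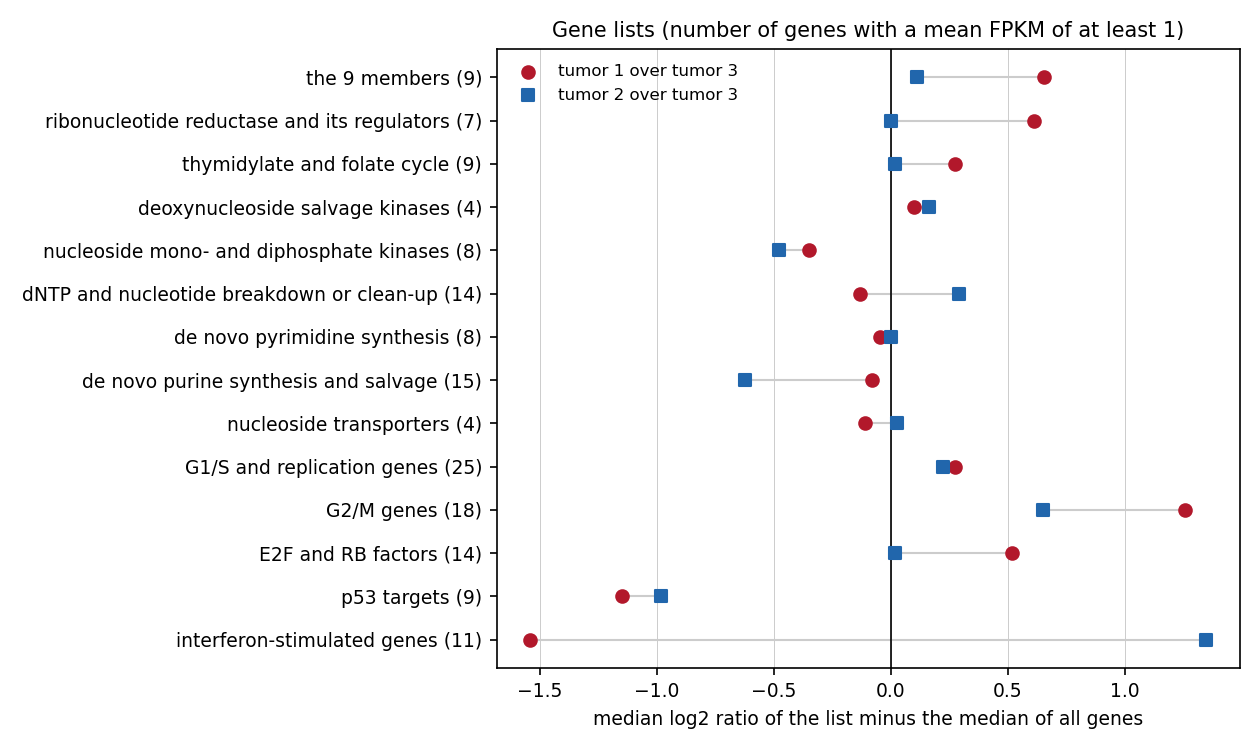
Median log2 ratio of each gene list minus the median of all genes, for tumor 1 over tumor 3 (circles) and tumor 2 over tumor 3 (squares), with the number of genes averaging at least 1 FPKM in parentheses; here the lists include those of the 9 genes that belong to them. The 9 genes lie at 0.65 and 0.11, between the G1/S genes at 0.27 and the G2 and mitosis genes at 1.26 for the first ratio.

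The label of a T-cell lymphoma was checked against marker genes. T cell markers were abundant in every tumor, with a summed FPKM of 1161 for tumor 1, 872 for tumor 2 and 1249.8 for tumor 3. Cd8b1, a chain of the CD8 co-receptor and the most abundant of them, had 435 FPKM, 166 FPKM and 443 FPKM. Cd8a, Cd8b1 and Cd4 were lowest in tumor 2, while 4 of the 8 markers, Cd3e, Cd3g, Cd5 and Lck, were highest there, against 33.7% of all genes, or 3 against 36.9% after scaling. Cd4 had the widest span of these markers and was highest in tumor 1, with 28.4 FPKM, 4.28 FPKM and 8.22 FPKM in tumors 1, 2 and 3. Lck, a kinase of T-cell receptor signaling, had 160 FPKM, 208 FPKM and 207 FPKM. Markers of other cells differed between the tumors, and their part in the values of the 9 genes was not tested. B cell markers were highest in tumor 3 for 5 of 5 genes, against 15.7% of all genes, with sums of 56.2 FPKM for tumor 1, 13.7 for tumor 2 and 104 for tumor 3, led by Cd79a with 23.1 FPKM, 7.31 FPKM and 49.0 FPKM. Erythroid markers were led by the globin Hba-a1 with 92.3 FPKM, 19.6 FPKM and 1.90 FPKM. Neutrophil markers summed to 37.1, 1.39 and 15.5 FPKM, led by S100a9 with 22.6 FPKM, 1.01 FPKM and 10.4 FPKM, while Elane had 0 reads in every tumor and Mpo 1 read in tumor 1 and 0 in the others. The sums of macrophage and neutrophil markers, and Hba-a1, were thus highest in tumor 1, as the 9 genes were before scaling. Dendritic cell markers summed to 9.34, 3.99 and 3.03 FPKM, led by Itgax with 3.18 FPKM, 1.47 FPKM and 0.762 FPKM, while Siglech was lowest in tumor 2 with 2.52 FPKM, 0.187 FPKM and 0.655 FPKM. Endothelial markers summed to 13.5, 12.7 and 5.08 FPKM, led by Pecam1 with 12.2 FPKM, 10.9 FPKM and 4.86 FPKM. Those sums were lowest in tumor 3. NK cell markers summed to 0.688, 5.97 and 3.51 FPKM, led by Klrb1c with 0.308 FPKM, 5.77 FPKM and 3.38 FPKM. Fibroblast markers summed to 10.1, 41.04 and 0.345 FPKM, led by Col1a1 with 1.63 FPKM, 15.5 FPKM and 0.315 FPKM, and Pdgfra had 0 reads in tumor 3. Pancreatic acinar markers summed to 70.5, 386 and 0.603 FPKM, led by the protease precursor Ctrb1 with 914 reads, 3292 reads and 0 reads. The sums of these last lists were highest in tumor 2, while Ncr1 among the NK cell markers, with 0.380 FPKM, 0.205 FPKM and 0.125 FPKM, and Dcn among the fibroblast markers, with 5.04 FPKM, 3.27 FPKM and 0.00825 FPKM, were highest in tumor 1.

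Likeness to Rrm1 was measured as the root mean square difference of log2 FPKM, each gene centred on its own mean, over the 3 tumors. Nearest were Idh2, a mitochondrial isocitrate dehydrogenase, at 0.0012, Rcsd1 at 0.0048, Trim3 at 0.0056, Supt20 at 0.012 and Zfp871 at 0.014. With 3 points many genes come close, and 298 of 11189 genes lay within 0.1 of Rrm1. Of the other 8 genes Dut was nearest, at 0.11 and rank 378, and Rrm2 followed at 0.22 and rank 1629. Dck was farthest, at 0.51 and rank 7121. The genes of the pathway were thus not the nearest to Rrm1 in these tumors.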

How the data were processed

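RNA-seq libraries of 3 Dnmt3b+/- PTCL were analysed. The authors aligned trimmed paired-end reads to mm10 with STAR, quantified reads above a minimum mapping quality in SeqMonk and deposited linear FPKM, 1 column per tumor. The sources name 2 sequencers for these libraries. Depth was computed from the value that genes without a read share, and reads from the exon lengths of GENCODE M21; 92.1%, 92.0% and 92.1% of values in tumors 1, 2 and 3 came out whole, within 0.01 read plus 0.00001 of the reads. No count model was used on FPKM. For repeated symbols, the row with the highest mean FPKM was used. Background genes had a mean FPKM of at least 1. Folds are ratios of FPKM without a pseudocount. Intervals of folds are exact (Clopper-Pearson), conditional on the summed reads of both tumors.

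The 9 genes, 13 gene lists and 10 marker lists were chosen with earlier results of these data known. Named from each list were the 3 genes with the highest mean FPKM and those with the largest and the smallest ratio between tumors, of which the text gives a part, and 1 marker is not reported here; Cd3e, Cd3g, Cd5, Dcn, Elane, Mpo, Pdgfra and Afmid were named after their values were seen. Alternatives were rescaling to a sum of 1000000, median-of-ratios factors, other thresholds, filters and pseudocounts, summed repeated symbols, each tumor left out and, chosen after seeing the data, the length of the principal coding transcript (the best APPRIS rank, then the longest) and gene lists without the 9 genes. Depth recovery, median-of-ratios factors, the 2-fold call and the search for genes alike were run on simulated data. That simulation gave genes without a read the same 0.9 read, so it could not test this assumption. The other steps were not run on simulated data. Tools were NumPy 2.4.6, pandas 2.3.3 and SciPy 1.17.1 under Python 3.11, with matplotlib 3.10.9 for figures.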

Additional observations from a re-analysis of the deposited data

How the results depend on the processing

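No paired analysis was possible because the RNA-seq libraries form 1 group and no result comes from a test. The number of genes spanning at least 2-fold, 3 of 9, was 6 at a threshold of 1.5 and 1 at a threshold of 3, by construction, 6 with FPKM rescaled to sum to 1000000, and 0 to 3 with a tumor left out, the 0 without tumor 1. The number highest in tumor 1, 9 as deposited, was 5 with median-of-ratios scaling and 9 with rescaling to 1000000. Rescaling to 1000000 changes the unit and raised the mean of Rrm1 to 37.8, Rrm2 to 127, Rrm2b to 17.3, Tk1 to 29.4, Tyms to 26.9, Dck to 64.9, Dut to 86.6, Dtymk to 61.8 and Samhd1 to 301; it brought the ratio of the highest to the lowest tumor to 2.20 for Rrm1, 2.12 for Dut and 2.21 for Samhd1. For Tk1 this ratio was 1.74 with median-of-ratios scaling and 1.83 with a pseudocount of 1. With a tumor left out the ratio ranged from 1.01 to 2.37 for Rrm2, from 1.26 to 2.04 for Tk1 and from 1.48 to 3.92 for Dck, lowest without tumor 1 for Rrm2 and Dck and without tumor 3 for Tk1. Leaving out tumor 1 lowered the ratio of Rrm1 from 1.86 to 1.13. Leaving out tumor 3 lowered that of Samhd1 from 1.86 to 1.05. Without a filter on low values the relative median of tumor 2 over tumor 3 was -0.66 for the mono- and diphosphate kinases and -1.15 for the p53 targets, from more genes. Of the 12 medians of the 6 lists that gain genes without the filter, the other 10 moved by at most 0.1 on the log2 scale; relative medians cannot move with the scaling. Leaving the 9 genes out of the lists, a choice made after seeing the data, moved the relative median of tumor 1 over tumor 3 from 0.61 to 0.34 for the reductase list, from 0.28 to 0.0741 for the folate list and from 0.10 to -0.65 for the salvage kinases, and that of tumor 2 over tumor 3 from 0.00 to 0.21 for the reductase list. With the length of the principal transcript, chosen after seeing the data, the mean was 21.01 for Rrm1, 21.4 for Tk1, 10.6 for Tyms, 33 for Dtymk and 142 for Samhd1, the ratio of Rrm2 to Rrm1 was 1.47, and that of Dck to Tk1 fell from 2.12 to 0.723, because these lengths differ. The causes of the other changes were not tested. Each tumor is 1 library, so differences between tumors have no replicate check, and depth limits the markers with few reads.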
